A study of Mus musculus with 15 samples.

Results

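The genes described here were lower or higher in the cerebellum of mice carrying Atxn1[82Q], and stood closer to wild type in mice that also carried the kinase allele CalphaLoxM120A. They number 38 of the 24420 gene symbols in the count table, 15 lower and 23 higher in the Atxn1[82Q] mice, or 0.271% of the 14015 genes expressed at 1 CPM or more. The 38 were chosen by their measured values in all 15 libraries, so their differences between the groups are given as a description, with no test. Levels are in CPM, a gene's count scaled by the total count of its library. Means and differences were taken on a log2 scale after adding 0.5 CPM. Gene coordinates are those of GENCODE M21 on GRCm38. A member had a mean of at least 1 CPM over the 15 libraries and differed by at least 0.4 (log2) between Atxn1[82Q] and wild type. With the kinase allele its mean had moved at least 50% of the way back, a share called the return here, and had not gone past wild type by more than 0.2. The 5 Atxn1[82Q] values overlapped neither the 5 wild-type values nor the 5 values with the kinase allele.

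The study sequenced RNA from dissected mouse cerebella in 3 groups of 5 libraries. WT mice were wild type, of strain FVB/nJ and 9 weeks old. Mice of the group called 82Q here had the genotype Atxn1[82Q], on FVB/nJ, also at 9 weeks. The third group, called 82Q_M120A here, had the genotype Atxn1[82Q],CalphaLoxM120A on a mixed C57Bl/6J and FVB/nJ background and was 8 weeks old. Strain, age and the kinase allele therefore differ together between 82Q and 82Q_M120A and cannot be told apart, and no group carried the kinase allele alone. The series text describes Atxn1[82Q] as a knockin. Which promoter drives it and in which cells the kinase allele acts, the sources used here do not give. The labels call the libraries of a group replicates without saying how they arose, so an SD below is the spread between these libraries.

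ATXN1 is a nuclear protein that works with transcriptional repressors, and spinocerebellar ataxia type 1, a disease with loss of Purkinje cells from the cerebellar cortex, arises from an expanded run of glutamines in it. Phosphorylation of a serine near its carboxyl end stabilises the protein, and protein kinase A (PKA), the kinase activated by cyclic AMP, can place that phosphate. PKA also phosphorylates CREB, a transcription factor that binds cyclic AMP response elements in promoters. The title of the series puts the question as whether less PKA phosphorylation of ATXN1 changes the course of the disease, and the comparison here is which transcripts stood closer to wild type with the kinase allele.

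The libraries held 38322749 to 99422994 counts, so 1 CPM stood for 38.3 to 99.4 counts. Atxn1 itself was measured at 51.6 ± 5.84 CPM in the WT libraries, 57.1 ± 1.68 in those of 82Q and 54.5 ± 2.25 in those of 82Q_M120A (SD, n = 5), and the mouse-aligned counts do not separate the allele with the expansion. Prkaca, which encodes the catalytic subunit of PKA that the kinase allele alters, was at 164 ± 3.90, 166 ± 5.94 and 147 ± 5.30 CPM (SD, n = 5). All 34 genes of a Purkinje cell list and all 18 of a granule cell list, the defining neurons of the cerebellum, averaged at least 1 CPM. Libraries with Xist of at least 100 CPM, a transcript of the inactive X chromosome, numbered 4 in WT, 2 in 82Q and 3 in 82Q_M120A. Libraries with Ttr of at least 1000 CPM, the main transcript of choroid plexus, numbered 4, 2 and 1. The 14 choroid plexus markers summed to 217 to 4330 CPM in WT, 315 to 4809 in 82Q and 206 to 3432 in 82Q_M120A, and none was at 0. Of 8 blood genes, the 4 haemoglobin genes were listed at 0 in every library. The direction of the members in any subset of libraries is fixed by the rule, which allowed no overlap. The size of the return in a subset is shaped by the rule too, which set its limits over the same 15 libraries, so it is a description. Its median was 109% for the members lower in 82Q and 73.2% for those higher among libraries above the Ttr limit, which held 1 82Q_M120A library. Below that limit, with 1 WT library, it was 82.1% and 68.4%. Above the Xist limit it was 81.2% and 69.7%, and below it, again with 1 WT library, 72.6% and 67.5%. In bulk RNA, fewer cells of a type and less RNA per cell cannot be told apart.

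Most genes that differed in 82Q did not share this return. Of 14015 genes that averaged 1 CPM or more, 684 differed by at least 0.4 with no overlap between 82Q and WT, 375 lower and 309 higher. Their median return toward WT in 82Q_M120A was 5.38% for those lower and 2.32% for those higher. A return of 100% means a mean equal to WT and 0% a mean equal to 82Q, and both differences behind it share the 82Q libraries. At least 50% was reached by 29 of the 375 and 40 of the 309, while 11 and 40 had moved at least 50% further away from WT. After the limit past WT and the requirement of no overlap with 82Q_M120A, 15 and 23 genes were left, 0.107% and 0.164% of the 14015. The members lower in 82Q were expressed at lower levels than all 375 changed genes of that direction, with a median of 10.7 against 27.7 CPM. For those higher the medians were close, 5.48 CPM for the members against 5.96 for all 309. Of the 38 members, 14 were below 5 CPM, and the smallest count behind any value was 32.

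**Figure D1:**
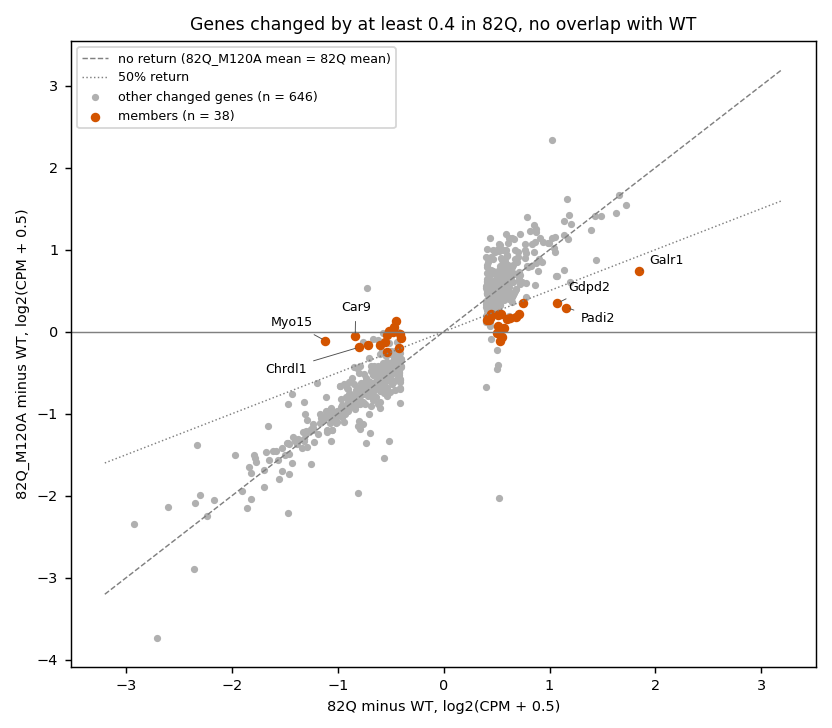
Each point is 1 of 684 genes, with the mean difference 82Q minus WT on the x axis and 82Q_M120A minus WT on the y axis, both in log2(CPM + 0.5). Most grey points lie near the dashed line of no return, and the 38 orange members lie between the 50% line and the WT level or, for 6, slightly past it, with Galr1 farthest right at 1.84 on the x axis.

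The comparisons that chose the members were also fitted across all genes with edgeR's quasi-likelihood test, which gives the background for the counts. At a Benjamini-Hochberg adjusted p under 0.05, 18.7% of 16808 genes differed between 82Q and WT and 38 of the 38 members did. Between 82Q_M120A and 82Q the share was 18.9%, and 37 members differed, Rarres1 being the exception. Between 82Q_M120A and WT 36.4% of all genes differed and 6 of the members did. The rule used each of these contrasts, so nothing is read from the members' counts. Called in 82Q and called back in the opposite direction with the kinase allele were 435 genes, 2.59% of those tested.

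The members are described by what their products do, a grouping made after the members were known. Among the 15 genes lower in 82Q the median difference from WT was -0.53 on the log2(CPM + 0.5) scale, from -1.12 to -0.40, and the median return was 90.1%, from 53.9% to 129%. Myo15, an unconventional myosin best known from the stereocilia of hair cells, had the largest fold among them. Myo15 (chr11:60469339-60528369) was at 6.13, 3.79, 3.76, 4.28 and 4.2 CPM in the WT libraries, 1.26, 2.09, 2.26, 1.86 and 1.41 in those of 82Q and 5.82, 3.44, 2.82, 7.21 and 2.4 in those of 82Q_M120A. Myo15 averaged 4.43 ± 0.978, 1.78 ± 0.429 and 4.34 ± 2.08 CPM (SD, n = 5), -1.12 in 82Q minus WT on the log2 scale, and returned by 90.1%. The WT and 82Q values stood well apart, and the 5 libraries with the kinase allele spread from just above 82Q to above WT. Among them, 82Q_M120A-4 and 82Q_M120A-1 were high and 82Q_M120A-5 and 82Q_M120A-3 low.

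Genes for enzymes of pH balance and of redox balance were among the members lower in 82Q. Car9 encodes a membrane carbonic anhydrase, which interconverts carbon dioxide and bicarbonate. Car9 (chr4:43506966-43513729) levels in WT were 8.81, 7.97, 7.84, 7.3 and 6.99 CPM, set against 3.99, 3.78, 3.8, 4.53 and 4.59 in 82Q libraries and 7.15, 6.23, 7.47, 5.53 and 12.2 in 82Q_M120A libraries. Car9 means were 7.78 ± 0.698, 4.14 ± 0.394 and 7.71 ± 2.61 CPM (SD, n = 5), and from a log2 difference of -0.84 in 82Q the return was 93%. A single library, 82Q_M120A-5, stood above every other value, and without it the return was 72.8%. Lancl1, which encodes a glutathione-binding protein, had the highest level of all members per length of transcript, 14.6 CPM per kilobase of exon. For Lancl1 (chr1:67000517-67038872) the WT libraries gave 115, 111, 113, 113 and 122 CPM, the 82Q libraries 85, 87.6, 85.6, 85.6 and 83.8 and the 82Q_M120A libraries 104, 96.8, 97.1, 102 and 102. The log2 difference of Lancl1 in 82Q was -0.42, its return 53.9%, and its means 115 ± 4.34, 85.5 ± 1.39 and 100.3 ± 3.1 CPM (SD, n = 5). All 5 values with the kinase allele lay between the 2 other groups and touched neither. After scaling by TMM, a factor that corrects for a few highly expressed genes, the return of Lancl1 was 48.1%, just under the threshold.

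Members lower in 82Q also included a secreted regulator and an enzyme that cleaves neuropeptide precursors. Chrdl1 encodes a secreted antagonist of bone morphogenetic proteins. Chrdl1 (chrX:143285674-143394262) was at 7.99, 6.34, 6.64, 6.89 and 8.79 CPM in the WT libraries, 3.98, 3.97, 4.4, 3.31 and 4.21 in those of 82Q and 5.62, 5.42, 6.24, 7.88 and 6.68 in those of 82Q_M120A. Chrdl1 averaged 7.33 ± 1.03, 3.98 ± 0.411 and 6.37 ± 0.98 CPM (SD, n = 5), -0.80 in 82Q minus WT on the log2 scale, and returned by 76.2%. The 3 lowest values with the kinase allele fell short of the lowest WT value and the other 2 lay inside the WT range. Pcsk1 encodes prohormone convertase 1, which cleaves neuropeptide precursors in secretory granules and is a known target of CREB. Pcsk1 (chr13:75089826-75134861) levels in WT were 14.4, 12.7, 14, 14.9 and 15.8 CPM, set against 10.5, 10.9, 10.2, 9.11 and 8.24 in 82Q libraries and 15.4, 13.5, 13.5, 11.5 and 16.4 in 82Q_M120A libraries. Group means were 14.4 ± 1.13, 9.8 ± 1.11 and 14.1 ± 1.88 CPM (SD, n = 5), with a log2 difference of -0.53 in 82Q and a return of 93.4%. Only 82Q_M120A-4 stayed below the lowest WT library, and the lowest value with the kinase allele was above the highest in 82Q.

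Pcsk1 was the single member of a list of 23 CREB target genes, and the sequence before its start is shown because it was the only member's promoter with the full cyclic AMP response element. The capitals mark TGACGTCA, whose first base lies 47 bases before the gene's start in GENCODE M21. The 219 bases at chr13:75089607-75089825 on the plus strand, from the RefSeq promoter table of GRCm38.p6, end at the base before that start.
Pcsk1: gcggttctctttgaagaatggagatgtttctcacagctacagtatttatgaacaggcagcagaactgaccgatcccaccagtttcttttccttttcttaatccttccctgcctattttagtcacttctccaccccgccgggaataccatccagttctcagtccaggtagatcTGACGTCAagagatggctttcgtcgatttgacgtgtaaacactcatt
Promoters in that table, 250 bases before and 50 after the RefSeq start, were matched for 29 of the 38 members, and all 300 bases were searched. TGACGTCA, searched on both strands, was in 1 of 29 (3.45%) and in 3.56% of 10614 genes that averaged 1 CPM or more. Its shorter core TGACG, which TGACGTCA contains, was in 6 of 29 (20.7%) and in 34.7% of the 10614. The other 5 promoters with the core are shown by 25-base windows with the core or its reverse complement in capitals, each before the RefSeq start and on the gene's own strand, since they set members of both directions beside Pcsk1.
Padi2 (chr4:140906258-140906282, plus strand): gggccaggctTGACGgacgggtttg
Ppp1r3g (chr13:35967856-35967880, plus strand): gggaggacctTGACGtgctctagtg
Ptchd4 (chr17:42316555-42316579, plus strand): cagaggggggTGACGgagggggtgt
Rarres1 (chr3:67515611-67515635, minus strand): cctctcaccgCGTCAtggggacatg
Rgs4 (chr1:169747864-169747888, minus strand): atgcaaaactTGACGcgtaggtaga
Ptchd4 was lower in 82Q and Padi2, Ppp1r3g, Rarres1 and Rgs4 were higher. The windows of Ppp1r3g and Ptchd4 lie before the RefSeq start but inside the gene as placed by GENCODE M21. Rgs4 holds a further match that is not printed, the reverse complement of the core at chr1:169747769-169747793. The motif TGAATGAA, bound by the ATXN1 partner CIC, was in 0 of 29 (1.05% of the 10614). GGGCGG, the motif of SP1, was in 17 of 29 (58.6%, against 68.5%). A match describes letters in a window and not a bound site, and a missing match says nothing of the factor.

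Signalling proteins lower in 82Q included a phosphatase, an adaptor and an activator of small GTPases. Ubash3b encodes a tyrosine phosphatase that dampens receptor signalling. For Ubash3b (chr9:41011098-41161697) the WT libraries gave 73.3, 77.2, 72.7, 81.5 and 83.3 CPM, the 82Q libraries 55.1, 53.3, 51, 49.3 and 45.9 and the 82Q_M120A libraries 68.9, 76.4, 58, 58.7 and 86.8. Ubash3b averaged 77.6 ± 4.73, 50.9 ± 3.56 and 69.8 ± 12.2 CPM (SD, n = 5), -0.60 in 82Q minus WT on the log2 scale, and returned by 72.2%. The values with the kinase allele ran from 58.0 to 86.8 CPM, from just above 82Q to above the highest WT library. Stap2 encodes a signal-transducing adaptor protein. Stap2 (chr17:55997077-56005584) was at 28.3, 29.5, 26.3, 27.5 and 23.5 CPM in the WT libraries, 19.1, 17.1, 19.6, 19.8 and 17.8 in those of 82Q and 28.2, 21.3, 26.3, 36.3 and 26 in those of 82Q_M120A. Stap2 means were 27 ± 2.31, 18.7 ± 1.16 and 27.6 ± 5.49 CPM (SD, n = 5), and from a log2 difference of -0.52 in 82Q the return was 103%. In this gene 82Q_M120A-4 exceeded every WT library and 82Q_M120A-2 fell below all of them. Arhgef19 encodes a guanine nucleotide exchange factor, which activates small GTPases. Arhgef19 (chr4:141239499-141257564) levels in WT were 23.7, 25, 25.7, 26.9 and 26.8 CPM, set against 19, 21.7, 18.1, 18.8 and 18.9 in 82Q libraries and 23.9, 22.1, 24.6, 28.4 and 22.8 in 82Q_M120A libraries. The log2 difference of Arhgef19 in 82Q was -0.40, its return 81.2%, and its means 25.6 ± 1.35, 19.3 ± 1.37 and 24.4 ± 2.47 CPM (SD, n = 5). Its difference lay just inside the threshold of 0.4, and it lies 286913 bases from Padi2, which differed in the opposite direction.

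Calcium-binding proteins were also lower. Cabp2 belongs to the calmodulin-like calcium-binding proteins that modulate voltage-gated calcium channels. For Cabp2 (chr19:4081578-4087340) the WT libraries gave 3.33, 2.58, 3.3, 2.67 and 3.11 CPM, the 82Q libraries 1.39, 1.97, 1.58, 1.94 and 1.34 and the 82Q_M120A libraries 3.18, 2.42, 2.37, 3.001 and 2.26. Cabp2 averaged 2.997 ± 0.351, 1.64 ± 0.298 and 2.64 ± 0.416 CPM (SD, n = 5), -0.71 in 82Q minus WT on the log2 scale, and returned by 77.9%. No value with the kinase allele exceeded the highest WT value, and 3 of 5 lay below the lowest. Necab3 encodes a neuronal protein with an EF-hand, the fold that binds calcium. Necab3 (chr2:154544399-154558890) was at 28.4, 34.1, 30.2, 22.9 and 28.1 CPM in the WT libraries, 19, 21.1, 20.1, 21.7 and 20.3 in those of 82Q and 31.2, 27.6, 28.5, 28.5 and 32.8 in those of 82Q_M120A. Group means were 28.7 ± 4.06, 20.4 ± 1.03 and 29.7 ± 2.19 CPM (SD, n = 5), with a log2 difference of -0.47 in 82Q and a return of 112%. All 5 values with the kinase allele lay inside the WT range. Necab3 overlaps exons of 1700003F12Rik on the other strand, which was at 1.41 CPM, with a difference of -0.22 in 82Q and a return of 120%. Actl10, also on the other strand, overlaps Necab3 without shared exons. It was at 1.42 CPM, with a difference of -0.51 and a return of 72.7%.

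Transcriptional regulators made up the next group. Skor2 encodes a corepressor needed for Purkinje cell differentiation. Skor2 (chr18:76856405-76900342) levels in WT were 13.3, 12.6, 12.9, 12.5 and 12.5 CPM, set against 8.27, 9.12, 9.1, 8.95 and 7.87 in 82Q libraries and 10.6, 10.1, 9.57, 11.3 and 11.9 in 82Q_M120A libraries. Skor2 averaged 12.7 ± 0.346, 8.66 ± 0.562 and 10.7 ± 0.934 CPM (SD, n = 5), -0.53 in 82Q minus WT on the log2 scale, and returned by 54.2%. The 5 values with the kinase allele stood between those of 82Q and WT with no overlap on either side. After scaling by TMM its return was 49.7%, just under the threshold, and without 82Q_M120A-5 it was 46.9%. Foxq1 encodes a forkhead transcription factor. For Foxq1 (chr13:31556134-31560976) the WT libraries gave 4.75, 4.52, 4.5, 4.55 and 3.68 CPM, the 82Q libraries 3.24, 3.15, 2.56, 3.05 and 3.11 and the 82Q_M120A libraries 4.89, 3.31, 4.78, 3.86 and 5.23. Foxq1 means were 4.4 ± 0.415, 3.02 ± 0.269 and 4.41 ± 0.801 CPM (SD, n = 5), and from a log2 difference of -0.47 in 82Q the return was 98.4%. Here 3 of the 5 values with the kinase allele were above the highest WT value and 82Q_M120A-2 was near the 82Q group.

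Membrane proteins were also among the members lower in 82Q. Ptchd4 encodes a protein with a patched domain. Ptchd4 (chr17:42315947-42505077) was at 10.6, 9.81, 9.85, 10.6 and 10.8 CPM in the WT libraries, 7.56, 6.21, 6.8, 7.23 and 6.61 in those of 82Q and 11.1, 8.44, 7.57, 10.9 and 9.78 in those of 82Q_M120A. The log2 difference of Ptchd4 in 82Q was -0.56, its return 78.2%, and its means 10.3 ± 0.47, 6.88 ± 0.528 and 9.55 ± 1.53 CPM (SD, n = 5). The lowest value with the kinase allele and the highest in 82Q were 7.57 and 7.56 CPM, the narrowest gap of any member. Tmem30b, a subunit of lipid flippases, was the least expressed of the 15, at 1.37 ± 0.18, 0.861 ± 0.0937 and 1.59 ± 0.524 CPM (SD, n = 5), and had the largest return, 129%.

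**Figure D2:**
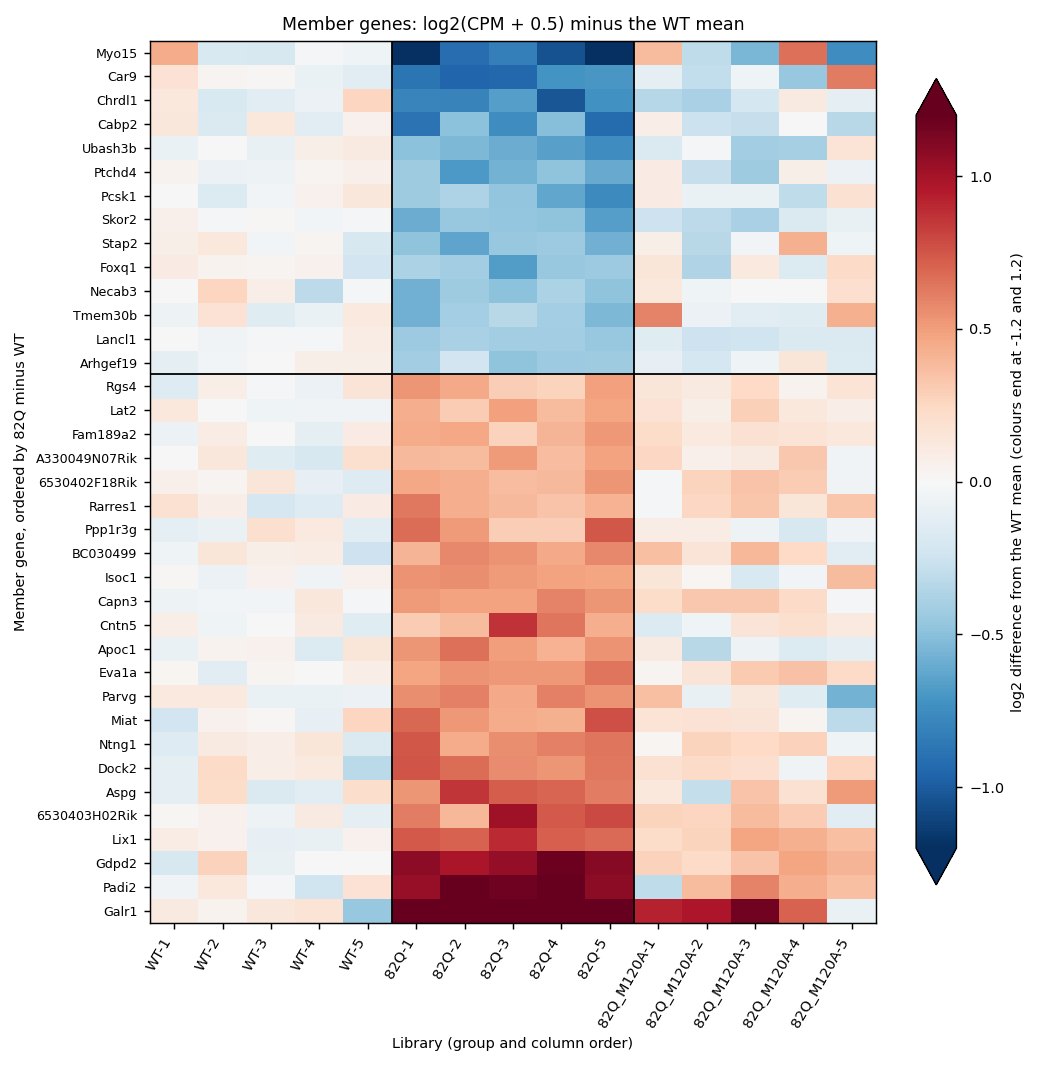
Rows are 37 of the 38 members, ordered by their difference between 82Q and WT, columns are the 15 libraries, and colour is log2(CPM + 0.5) minus the WT mean of that gene, blue for lower and red for higher. The 82Q columns are blue for the members lower in 82Q and red for those higher, while the WT columns are mostly pale and the 82Q_M120A columns are uneven from gene to gene.

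Among the 23 genes higher in 82Q the median difference from WT was 0.53, from 0.41 to 1.84, and the median return was 67.7%, from 52.6% to 121%. Galr1, a receptor for the neuropeptide galanin that couples to inhibitory G proteins and lowers cyclic AMP, differed most. Galr1 (chr18:82392380-82406777) levels in WT were 2.54, 2.4, 2.6, 2.67 and 1.57 CPM, set against 9.01, 8.23, 8.93, 10.5 and 11.9 in 82Q libraries and 4.85, 5.01, 5.8, 4.1 and 2.17 in 82Q_M120A libraries. Galr1 averaged 2.36 ± 0.452, 9.71 ± 1.48 and 4.39 ± 1.38 CPM (SD, n = 5), 1.84 in 82Q minus WT on the log2 scale, and returned by 60.2%. The ratio of the 82Q to the WT mean was 4.12. Only 82Q_M120A-5 lay inside the WT range, and without that library the return was 49.1%, under the threshold. Galr1 belonged to a list of 34 neuropeptides and their receptors, of which 26 were tested. In that list 3 rose and 2 fell in 82Q against WT by edgeR's adjusted p (8.63% and 10.1% of all genes). Against 82Q, 3 rose and 7 fell in 82Q_M120A (10.3% and 8.63% of all genes). Rgs4, which speeds the shut-off of Gi and Gq signalling, was the second receptor-linked member. For Rgs4 (chr1:169741477-169747642) the WT libraries gave 18.2, 21.5, 20.1, 19.3 and 22.6 CPM, the 82Q libraries 29.5, 28, 24.9, 24.4 and 28.6 and the 82Q_M120A libraries 22.5, 21.9, 23.9, 20.9 and 22.8. Group means were 20.3 ± 1.74, 27.1 ± 2.3 and 22.4 ± 1.13 CPM (SD, n = 5), with a log2 difference of 0.41 in 82Q and a return of 65.6%. All values in 82Q_M120A were below those in 82Q, and 3 lay inside the WT range. After scaling by TMM the difference of Rgs4 in 82Q was 0.36, under the threshold of 0.4.

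Enzymes and their subunits formed the next group of higher members. Padi2 encodes peptidylarginine deiminase 2, which converts arginine in proteins such as myelin basic protein to citrulline. Padi2 (chr4:140906344-140952586) was at 36.3, 41, 37.2, 31.6 and 42.4 CPM in the WT libraries, 78, 90.4, 84.9, 90.3 and 79.3 in those of 82Q and 30.4, 49, 57.1, 50.8 and 48.3 in those of 82Q_M120A. Padi2 averaged 37.7 ± 4.23, 84.6 ± 5.88 and 47.1 ± 9.98 CPM (SD, n = 5), 1.16 in 82Q minus WT on the log2 scale, and returned by 74.6%. With the kinase allele 4 libraries lay between 48.3 and 57.1 CPM, above WT, and 82Q_M120A-1 lay below all WT libraries. Without that library the return was 61.8%. The summed level of 16 oligodendrocyte markers, the cells in which Padi2 is known to be abundant, overlapped between 82Q and 82Q_M120A. It ranged over 5393 to 6450 CPM in WT libraries, 6823 to 8219 in 82Q libraries and 7587 to 8463 with the kinase allele. By edgeR's test 10 of the 16 markers rose in 82Q against WT (8.63% of all genes). Against 82Q, 5 rose and 0 fell in 82Q_M120A (10.3% and 8.63% of all genes). Whether the number of oligodendrocytes had a part in the level of Padi2 was not tested.

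Gdpd2 encodes a glycerophosphodiester phosphodiesterase. Gdpd2 (chrX:100729873-100738895) levels in WT were 3.61, 5.18, 3.91, 4.21 and 4.18 CPM, set against 9.35, 8.76, 9.23, 10.1 and 9.49 in 82Q libraries and 5.18, 5.01, 5.46, 6.002 and 5.74 in 82Q_M120A libraries. Gdpd2 means were 4.22 ± 0.591, 9.38 ± 0.478 and 5.48 ± 0.402 CPM (SD, n = 5), and from a log2 difference of 1.07 in 82Q the return was 67.7%. The values with the kinase allele lay within 5.01 to 6.002 CPM, partly inside the WT range and far below the lowest 82Q library. Aspg encodes an asparaginase. For Aspg (chr12:112106679-112127559) the WT libraries gave 3.73, 4.8, 3.54, 3.65 and 4.78 CPM, the 82Q libraries 6.09, 7.76, 7.08, 6.91 and 6.5 and the 82Q_M120A libraries 4.49, 3.24, 5.28, 4.67 and 6.02. The log2 difference of Aspg in 82Q was 0.69, its return 74.7%, and its means 4.1 ± 0.632, 6.87 ± 0.627 and 4.74 ± 1.03 CPM (SD, n = 5). Its 82Q_M120A values ran from below the WT range to 6.02 CPM, next to the lowest 82Q value. Isoc1 encodes a protein with an isochorismatase domain. Isoc1 (chr18:58659466-58680368) was at 22, 20.7, 22.6, 21.2 and 22.6 CPM in the WT libraries, 31.9, 32.3, 31.3, 30.7 and 30.5 in those of 82Q and 24.1, 22.2, 19.1, 21.3 and 28.5 in those of 82Q_M120A. Isoc1 averaged 21.8 ± 0.854, 31.3 ± 0.75 and 23 ± 3.56 CPM (SD, n = 5), 0.51 in 82Q minus WT on the log2 scale, and returned by 87.2%. The spread within WT and within 82Q was narrow, and 82Q_M120A-5 stood nearer to 82Q than to WT. Ppp1r3g encodes a subunit that brings protein phosphatase 1 to glycogen. Ppp1r3g (chr13:35958839-35970388) levels in WT were 1.17, 1.21, 1.57, 1.46 and 1.15 CPM, set against 2.38, 2.08, 1.71, 1.72 and 2.51 in 82Q libraries and 1.42, 1.42, 1.23, 1.08 and 1.25 in 82Q_M120A libraries. Group means were 1.31 ± 0.189, 2.08 ± 0.37 and 1.28 ± 0.142 CPM (SD, n = 5), with a log2 difference of 0.50 in 82Q and a return of 104%. No value with the kinase allele exceeded the highest WT value. Capn3, a calcium-dependent protease, was at 2.28 ± 0.152, 3.47 ± 0.128 and 2.74 ± 0.299 CPM (SD, n = 5). Capn3 shares exons on the same strand with Ganc, at 14.6 CPM, and the sources used here do not state how reads over both were counted.

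Genes of immune cells were a further group, while no gene of the microglia list was a member. Dock2 activates the GTPase Rac in cells of blood origin. For Dock2 (chr11:34226815-34783892) the WT libraries gave 2.23, 2.95, 2.61, 2.68 and 1.85 CPM, the 82Q libraries 4.45, 4.16, 3.87, 3.73 and 4.05 and the 82Q_M120A libraries 2.84, 2.94, 2.87, 2.35 and 3.02. Dock2 averaged 2.46 ± 0.429, 4.05 ± 0.278 and 2.8 ± 0.264 CPM (SD, n = 5), 0.63 in 82Q minus WT on the log2 scale, and returned by 73.8%. With the kinase allele 4 of the 5 values lay inside the WT range. Parvg encodes parvin gamma, an adhesion protein of blood-derived cells. Parvg (chr15:84324026-84342978) was at 2.24, 2.23, 1.89, 1.88 and 1.9 CPM in the WT libraries, 3.22, 3.33, 2.95, 3.33 and 3.16 in those of 82Q and 2.75, 1.87, 2.27, 1.78 and 1.2 in those of 82Q_M120A. Parvg means were 2.03 ± 0.189, 3.2 ± 0.155 and 1.97 ± 0.577 CPM (SD, n = 5), and from a log2 difference of 0.55 in 82Q the return was 111%. The 5 values spread widely, from 1.2 CPM, below WT, to 2.75 CPM, near 82Q. Lat2, an adaptor of immune receptors, was at 2.56 ± 0.159, 3.59 ± 0.212 and 2.9 ± 0.211 CPM. Apoc1, an apolipoprotein, was at 1.58 ± 0.173, 2.5 ± 0.181 and 1.43 ± 0.216 CPM (SD, n = 5). Lat2 shares exons on opposite strands with Rfc2, which was at 26.2 CPM.

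All 18 genes of the microglia list rose in 82Q against WT by edgeR's test (8.63% of all genes), and none was a member. In 82Q_M120A against 82Q, 4 rose (10.3% of all genes) and 2 fell (8.63% of all genes), P2ry12 and Tmem119. Their summed level ranged over 177 to 199.9 CPM in WT libraries, 296 to 320 in 82Q libraries and 287 to 342 with the kinase allele. The median return of the 15 that met the change rule was 4.60%. P2ry12, a purinergic receptor of microglia, returned by 52.1% and fell just outside the choice because its 82Q and 82Q_M120A values overlapped. Whether the number of microglia had a part in the levels of Dock2, Parvg, Lat2 or Apoc1 was not tested.

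Adhesion and guidance genes included Ntng1, which encodes netrin G1, a membrane-anchored protein of axons. Ntng1 (chr3:109780040-110144011) levels in WT were 22, 26.5, 25.9, 27.2 and 21.7 CPM, set against 41.6, 33.6, 36.4, 37.7 and 38.6 in 82Q libraries and 24.9, 29.7, 29.1, 29.8 and 23.6 in 82Q_M120A libraries. The log2 difference of Ntng1 in 82Q was 0.60, its return 74.8%, and its means 24.7 ± 2.63, 37.6 ± 2.93 and 27.4 ± 2.93 CPM (SD, n = 5). The values with the kinase allele were at or slightly above the WT range and all below the lowest 82Q value. Cntn5 encodes contactin 5, an immunoglobulin-family adhesion protein. For Cntn5 (chr9:9660891-10904775) the WT libraries gave 1.52, 1.35, 1.42, 1.56 and 1.23 CPM, the 82Q libraries 1.86, 1.98, 2.97, 2.47 and 2.08 and the 82Q_M120A libraries 1.21, 1.34, 1.63, 1.68 and 1.58. Cntn5 averaged 1.41 ± 0.133, 2.27 ± 0.456 and 1.49 ± 0.204 CPM (SD, n = 5), 0.52 in 82Q minus WT on the log2 scale, and returned by 90.4%. All its values were under 3 CPM, and the lowest 82Q value stood little above the highest in 82Q_M120A. Lix1, named for its expression in limb and central nervous system, kept a larger distance from WT. Lix1 (chr17:17402672-17459387) was at 12.3, 11.9, 10.7, 10.8 and 12 CPM in the WT libraries, 19.6, 19.1, 21.9, 19.3 and 18.8 in those of 82Q and 13.5, 14, 16.2, 15.6 and 15 in those of 82Q_M120A. Group means were 11.6 ± 0.742, 19.7 ± 1.25 and 14.9 ± 1.11 CPM (SD, n = 5), with a log2 difference of 0.75 in 82Q and a return of 53.4%. All 5 values with the kinase allele lay between WT and 82Q without touching either. Eva1a, a regulator of autophagy in membranes, gave a like pattern. Eva1a (chr6:82041043-82093099) levels in WT were 19.6, 17.5, 19.8, 19.3 and 20.4 CPM, set against 27, 28.3, 27.9, 27.9 and 30.4 in 82Q libraries and 19.8, 21.5, 24.1, 24.7 and 22.7 in 82Q_M120A libraries. Eva1a averaged 19.3 ± 1.08, 28.3 ± 1.28 and 22.6 ± 1.98 CPM (SD, n = 5), 0.54 in 82Q minus WT on the log2 scale, and returned by 59.9%. Inside the WT range lay 1 of its 82Q_M120A values, and 4 lay above it.

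The noncoding members numbered 4. Miat is a long noncoding RNA of neurons. For Miat (chr5:112213228-112229395) the WT libraries gave 19.7, 24.2, 23.5, 21.6 and 28 CPM, the 82Q libraries 37.9, 33.7, 31.8, 31.4 and 40.01 and the 82Q_M120A libraries 26.2, 26.3, 25.9, 23.8 and 18.6. Miat means were 23.4 ± 3.09, 34.9 ± 3.83 and 24.1 ± 3.27 CPM (SD, n = 5), and from a log2 difference of 0.57 in 82Q the return was 92.8%. With the kinase allele 4 values lay inside the WT range and 82Q_M120A-5 below it. The other noncoding members were 6530403H02Rik, 6530402F18Rik and A330049N07Rik, with differences in 82Q of 0.71, 0.44 and 0.42. The transcript 6530402F18Rik shares exons on the same strand with Ntng2, whose own difference was 0.64 with a return of 33.9%. Further members higher in 82Q were Fam189a2, Rarres1 and BC030499, with returns of 61.6%, 52.6% and 60.2%.

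**Figure D3:**
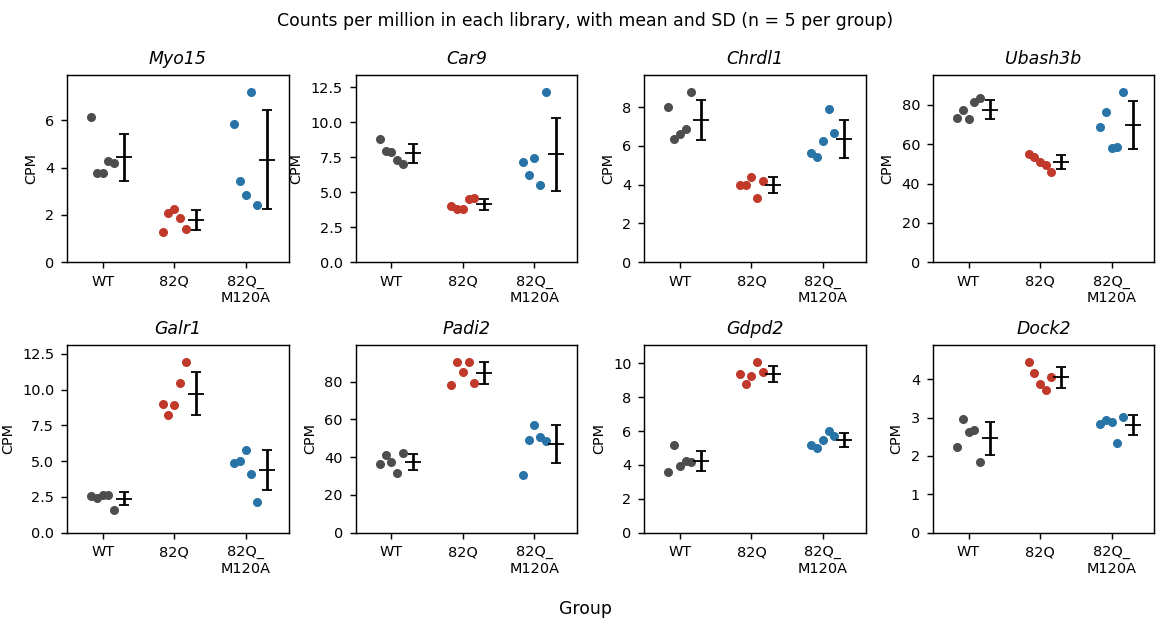
Each panel shows 1 member, with CPM on a linear axis from 0, the 3 groups on the x axis, 1 point per library and a bar at the group mean with SD. The 82Q points lie apart from both other groups in every panel, and the 82Q_M120A points scatter more than the others for Padi2, Car9, Myo15 and Ubash3b.

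The list of the PKA pathway held no member. Of 33 genes of PKA and cyclic AMP signalling, 6 rose and 5 fell in 82Q against WT and 5 rose and 4 fell in 82Q_M120A against 82Q, by edgeR's adjusted p. Over all genes 8.63% rose and 10.1% fell in 82Q against WT, and 10.3% rose and 8.63% fell in 82Q_M120A against 82Q, which is the background for the counts here and in the lists that follow. The median differences of the 33 genes were 0.06 and -0.02 on the log2 scale. Of 22 CREB target genes tested, 0 rose and 1, Pcsk1, fell in 82Q. In 82Q_M120A against 82Q, 2 of the 22 rose and 6 fell (10.3% and 8.63% of all genes). Of 24 genes of G protein and RGS signalling, 3 rose and 7 fell in 82Q, and Rgs4 was the member among them. Of 17 tested genes of the ATXN1 complex 1 rose and 3 fell in 82Q, and of 13 tested CIC target genes 1 rose and 4 fell (8.63% and 10.1% of all genes), with no member in either list.

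Purkinje cell genes were mostly lower in 82Q and had a small median return. Of 34 genes, 30 fell in 82Q against WT, with a median difference of -0.96. Against 82Q, 5 rose and 2 fell in 82Q_M120A, with a median difference of 0.07. The 28 that met the change rule had a median return of 5.41%, and Skor2 was the single member. Called back by edgeR's test in 82Q_M120A were Car8, Rgs8, Skor2, Ebf2 and Kitl, 5 of the 30 that fell. Over all genes, 435 of the 3142 called in 82Q against WT were called back. Of 30 genes of mGluR1 and calcium signalling, the pathway from the metabotropic glutamate receptor of Purkinje cells, 26 fell in 82Q and none was a member. Of 20 genes of reactive glia 15 rose in 82Q, and in 82Q_M120A against 82Q 3 rose and 0 fell. Of 16 genes of astrocytes and Bergmann glia 6 rose and 3 fell in 82Q, and 0 rose and 4 fell in 82Q_M120A against 82Q. Gjb6, a connexin of astrocytes, returned by 49.0% and lay just outside the choice. In all, 4 members stood in any of the 34 lists: Skor2, Pcsk1, Galr1 and Rgs4.

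The size of the return differed between the 82Q_M120A libraries, all of which lie on the WT side of 82Q for every member because the rule allowed no overlap. In each 82Q_M120A library the median position of the members between the 82Q mean (0%) and the WT mean (100%) was computed. For the members lower in 82Q it was 111%, 64.1%, 74.2%, 68.0% and 90.01% in 82Q_M120A-1 to 82Q_M120A-5. For those higher it was 71.1%, 71.3%, 50.4%, 62.8% and 80.3%. All 684 changed genes, which were not chosen for a return, stood at 10.1%, 2.19%, -7.55%, 7.53% and 11.6% in the same libraries. The library 82Q_M120A-3 was lowest for the higher members and for the changed genes at large. Of 190 values of members in 82Q_M120A libraries, 68 lay inside the WT range of their gene, 96 between that range and 82Q, and 26 past WT. The 82Q_M120A group stayed apart from WT for 4 members, Skor2, Lancl1, Fam189a2 and Lix1. Over all 14015 genes of at least 1 CPM the share was 30.7%. The rule asked the members for a return toward WT, so nothing is read from their count.

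**Figure D4:**
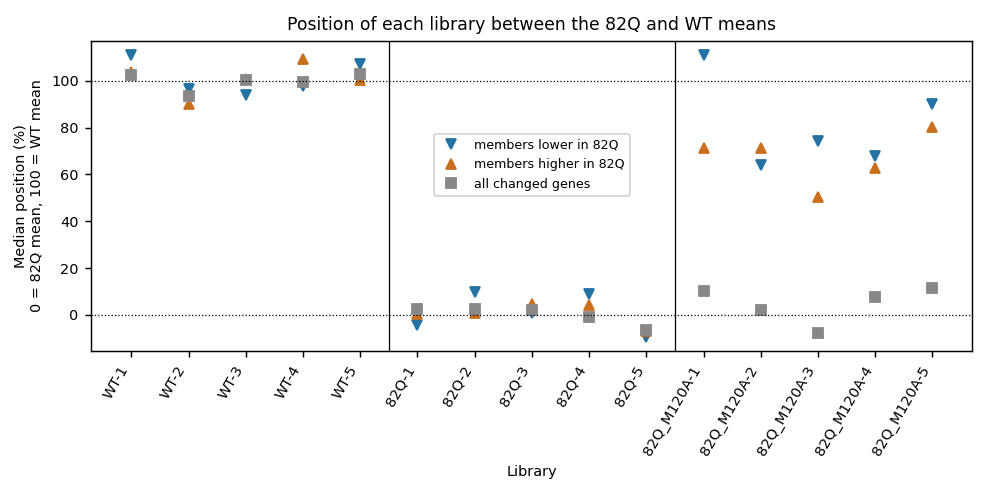
The y axis gives the median position of a gene set between the 82Q mean (0%) and the WT mean (100%) in each library on the x axis, with triangles for the members lower and higher in 82Q and squares for all 684 changed genes. In 82Q_M120A the triangles lie between 50.4% and 111% and the squares between -7.55% and 11.6%.

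The spread within groups was read from the same values that chose the members, so it is a description shaped by the choice. The SD of log2(CPM + 0.5) was largest in 82Q_M120A for 26 of 38 members (68.4%), compared with 57.7% of the 684 changed genes and 44.6% of all 14015. After removing group means, the median correlation between pairs was 0.157 for the 15 lower members, 0.046 for the 23 higher and 0.004 for all 703 pairs. Over all genes it was 0.0055, across the same 15 libraries.

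The choice of members depends on values close to its thresholds. Just inside the change threshold of 0.4 stood Arhgef19 (0.4003) and Rgs4 (0.406), and just outside it Sycp2 (0.392) and Dbndd2 (0.391). Rarres1 (52.6%) and Lix1 (53.4%) stood just inside the return threshold, and Cmya5 (49.7%) and Gjb6 (49.0%) just outside. Tmem30b and Apoc1 went furthest past WT among the members, by 0.13 and 0.11, and Scn7a (0.23) and Cml2 (0.40) were left out for going further. The lowest mean among the members was 1.27 CPM, for Tmem30b, followed by BC030499 at 1.40. Lrmp (0.956 CPM) and Adra2b (0.633 CPM) missed this minimum alone. Ptchd4 and BC030499 had the smallest gaps between 82Q and 82Q_M120A, and Spx and P2ry12 failed by the smallest overlaps. Leaving out 1 library at a time and applying the rule again chose 24 of the 38 again in every case. Without 82Q-2 the rule chose 23 lower members in place of 15.

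The 38 members lay on 17 chromosomes of GRCm38 and 34 were protein coding. None was on chromosome 8, which holds Prkaca and 5.19% of the placed genes of at least 1 CPM. Chromosomes 14, 16 and Y also held none, and nothing is read from these absences. Of the 3 on chromosome 13, which holds Atxn1, the nearest started 9.59 Mb from it. The single pair closer than 1 Mb was Padi2 (chr4:140906344-140952586) and Arhgef19 (chr4:141239499-141257564), separated by 286913 bases. These differed in opposite directions in 82Q. For 5 members another gene of at least 1 CPM overlapped, and for 4 of them the exons overlapped. Reads of Capn3 and Ganc, and of 6530402F18Rik and Ntng2, share a strand and cannot be separated by it. Those of Necab3 and Lat2 and their partners on the opposite strand can be mixed if strand was not used in counting.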

How the data were processed

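RNA from 15 cerebella libraries was prepared with TruSeq kits, per the labels' protocols. The submitters' processing notes name CASAVA 1.8, HISAT2 2.0.1, featureCounts, R 3.3.3 and DESeq2 1.14.1, and the build mm10. The deposited table holds raw read counts per gene symbol, made by the authors, and 3300 symbols are at 0 throughout. The sources used here do not give the strand setting. Libraries are numbered in column order, since columns name only a group. CPM used column totals, and log2 values added 0.5. The members and gene lists were chosen with earlier results of these data known. Counts over all genes came from edgeR 4.0.16 (TMM, low-count filter, quasi-likelihood test, two-sided, Benjamini-Hochberg adjusted p under 0.05), fitted to all 15 libraries. The rule and tests were tested on simulated data. Positions came from GENCODE M21 and promoters from RefSeq. Values in every library are given for members with the largest differences in each direction, the highest levels, a return nearest 100%, or a place in a list. DESeq2 1.42.0, other scalings, filters, pseudocounts and thresholds, and leaving out libraries, were alternatives. Splits by Ttr and Xist were chosen after seeing the data. The values of 1 member are not reported here.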

Additional observations from a re-analysis of the deposited data

Results flagged for a closer look

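In 11 of 114 combinations of a member and a group (9.65%), a single library lay far from the 4 others of its group, by Dixon's test at the 95% level. For normally spread values not chosen beforehand, chance alone flags about 1 in 20 groups. The members were chosen by these same values and the share over all genes is not given, so nothing is read from this count. Padi2 in 82Q_M120A-1 was at 30.4 CPM, where the other libraries of the group lay between 48.3 and 57.1. Galr1 in WT-5 was at 1.57 CPM, against 2.40 to 2.67 in the other WT libraries. Myo15 in WT-1 reached 6.13 CPM, against 3.76 to 4.28. The noncoding 6530403H02Rik was at 4.04 CPM in 82Q_M120A-5, against 5.46 to 5.98, and Dock2 at 2.35 CPM in 82Q_M120A-4, against 2.84 to 3.02. Foxq1 was low in a library of each of 2 groups, at 3.68 CPM in WT-5 (4.504 to 4.75 in the others) and at 2.56 CPM in 82Q-3 (3.05 to 3.24). Arhgef19 was high in 82Q-2, at 21.7 CPM against 18.1 to 19.0, and Lix1 in 82Q-3, at 21.9 CPM against 18.8 to 19.6. Small excesses marked Lat2 in WT-1, at 2.84 CPM against 2.46 to 2.56, and Capn3 in WT-4, at 2.54 CPM against 2.17 to 2.24.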

How the results depend on the processing

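No paired analysis was possible because the columns of the count table carry no replicate numbers. The labels number the replicates within each group and name no pairing between mice of different groups. Directions of single members are fixed by the rule and say nothing of stability. Of their 1368 recomputed differences 9 moved by at least 1 SD, all with a pseudocount of 2. The number of members moved as follows. With a pseudocount of 2 it was 11 lower and 11 higher, with a minimum of 5 CPM 13 higher, and with a change of at least 0.6 it was 5 lower and 7 higher. Leaving out 1 library gave 14 to 23 lower members and 20 to 32 higher. TMM scaling gave 17 lower and 18 higher, 30 of them among the 38. The median return, 90.1% for the lower and 67.7% for the higher members in the main choice, depended on these settings too. For the genes chosen under TMM scaling, it was smaller for those lower and larger for those higher. The same held with a pseudocount of 2, so in both settings the medians of the lower and higher genes stood closer together. Genes kept under every left-out library, TMM and both pseudocounts numbered 17, among them Myo15, Car9, Chrdl1, Padi2, Gdpd2 and Pcsk1. Scaling by library size alone raised the share of higher genes among those called in 82Q against WT from 46.2% to 73.0%, and in 82Q_M120A against WT from 51.1% to 68.8%. The cause was not tested. The smallest count of 32 has a counting error of 17.7%.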
